A study of Mus musculus with 4 samples.

Results

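A group of 9 genes that mark naive and memory T cells was followed in T cells from mouse tumours: Tcf7, Lef1, Id3, Klf2, S1pr1, Ccr7, Il7r, Bcl2 and Dapl1. They were taken by gene symbol, and each symbol matched 1 of the 31253 features, so the group is 9 of 31253. Tumours of MC38, a mouse colon adenocarcinoma line, were grown under the skin of mice aged 8 weeks from 100000 injected cells and taken on day 16, and their CD45+ (immune) cells were read by droplet single-cell RNA sequencing. There were 2 libraries from WT mice and 2 from mice with a conditional knockout (cKO) of Ufl1, the enzyme that attaches the small modifier UFM1 to proteins; no further treatment was given to either group. By the series title the gene was removed in T cells, and the receptor PD-1, encoded by Pdcd1, was in question. Strain, sex, Cre driver and the exons removed are not in the labels, nor is it said whether a library came from 1 animal, so p-values for cKO against WT measure only the spread between these libraries.

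Naive and memory T cells leave the blood for lymphoid organs, live long on interleukin-7 and keep the capacity to divide, and the 9 genes serve these tasks. TCF-1 (Tcf7) and LEF-1 (Lef1) are sister transcription factors that maintain this state, Id3 blocks E proteins in memory precursors, and Klf2 keeps T cells quiescent and switches on S1pr1. S1pr1 lets a T cell leave a tissue along a lipid gradient, and Ccr7 draws it into lymph nodes. Il7r is the interleukin-7 receptor chain and Bcl2 blocks cell death. The role of Dapl1 in T cells is less well known. Repeated antigen raises PD-1 and represses much of this set, but a minority of PD-1+ CD8 T cells in tumours and chronic infection keeps TCF-1 and is known as stem-like.

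Classes were gated on marker UMIs (unique molecular identifiers, 1 per captured RNA molecule). A T cell needed 2 UMIs of the CD3 genes, no Ncr1 and few UMIs of other lineages; a CD8 cell also 2 UMIs of Cd8a and Cd8b1, a conventional CD4 cell 1 of Cd4 and none of Foxp3, a regulatory T cell (Treg) 1 of Foxp3, and a gamma-delta T cell 2 of Trdc. Lists of 4 values run through WT replicates 1 and 2, then cKO replicates 1 and 2. The gates took 705, 1566, 807 and 1382 T cells, among them 225, 718, 215 and 647 CD8 cells, 126, 199, 268 and 190 conventional CD4 cells, 55, 158, 93 and 88 Tregs, and 74, 76, 46 and 73 gamma-delta cells. Markers of other cell types were also present. The 8 macrophage genes summed to 49.2 to 961 CPM (UMIs of a gene per 1000000 UMIs of the class) in the 5 classes. The 4 NK genes, of which the gate itself removes Ncr1, summed to 0 to 144 CPM. The 3 monocyte genes, of which T cells themselves use Ly6c2, summed to 489 to 3563 CPM. Their highest sum, in CD8 cells without Pdcd1 of WT replicate 2, was above the 2547 CPM of the 4 T cell genes there (Cd3d, Cd3e, Cd3g and Trac). In most classes and libraries the T cell genes were the higher ones.

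Libraries stood apart in 2 ways. WT replicate 1 and cKO replicate 2 shared 479 cell barcodes, against 85 to 104 in the other pairs of libraries, and 37, 41, 33 and 67 gated T cells carried a shared barcode. cKO replicate 2 held 289.8 CPM of Xist, which coats the inactive X of female cells, against 0.128 to 1.01 CPM elsewhere, and 11 UMIs of the Y-linked Ddx3y against 2886 to 3429. Ufl1 itself was at 15.9, 16.6, 14.7 and 18.8 CPM in T cells, so it did not separate the groups. The reads could lie outside the part removed, so this checks nothing about the labels. Each library held 64141857 to 79747752 UMIs, and the median T cell 5289 to 6107.

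Across T cell classes, the transcription factors of the group were lowest in Tregs or in CD8 cells with a Pdcd1 UMI. Tcf7 was at 169.8, 134, 183 and 164 CPM in conventional CD4 cells and at 141, 108, 206 and 111 CPM in CD8 cells without Pdcd1. It was at 95.2, 100.1, 156 and 96.4 CPM in gamma-delta cells, at 77.6, 21.8, 79.4 and 25.2 CPM in CD8 cells with Pdcd1 and at 8.57, 1.06, 21.01 and 6.50 CPM in Tregs. The first 3 classes overlap one another, while CD8 cells with Pdcd1 lie below all of them and Tregs below every other class. Lef1 followed a different order: its mean was 110.5 ± 20.9 CPM (SD, n = 4 libraries) in CD8 cells without Pdcd1, 72.5 ± 10.4 in conventional CD4 cells, 56.6 ± 21.01 in gamma-delta cells, 48.5 ± 13.6 in Tregs and 23.7 ± 17.1 in CD8 cells with Pdcd1, and each class overlapped the next. Tregs were thus nearly without Tcf7 but not without its sister gene. Id3 ran from 104 ± 9.90 CPM in CD8 cells without Pdcd1 to 44.1 ± 33.6 in Tregs, again with every neighbour overlapping. Klf2 ran from 591 ± 30.5 CPM in conventional CD4 cells to 320.3 ± 87.3 in CD8 cells with Pdcd1.

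**Figure D1:**
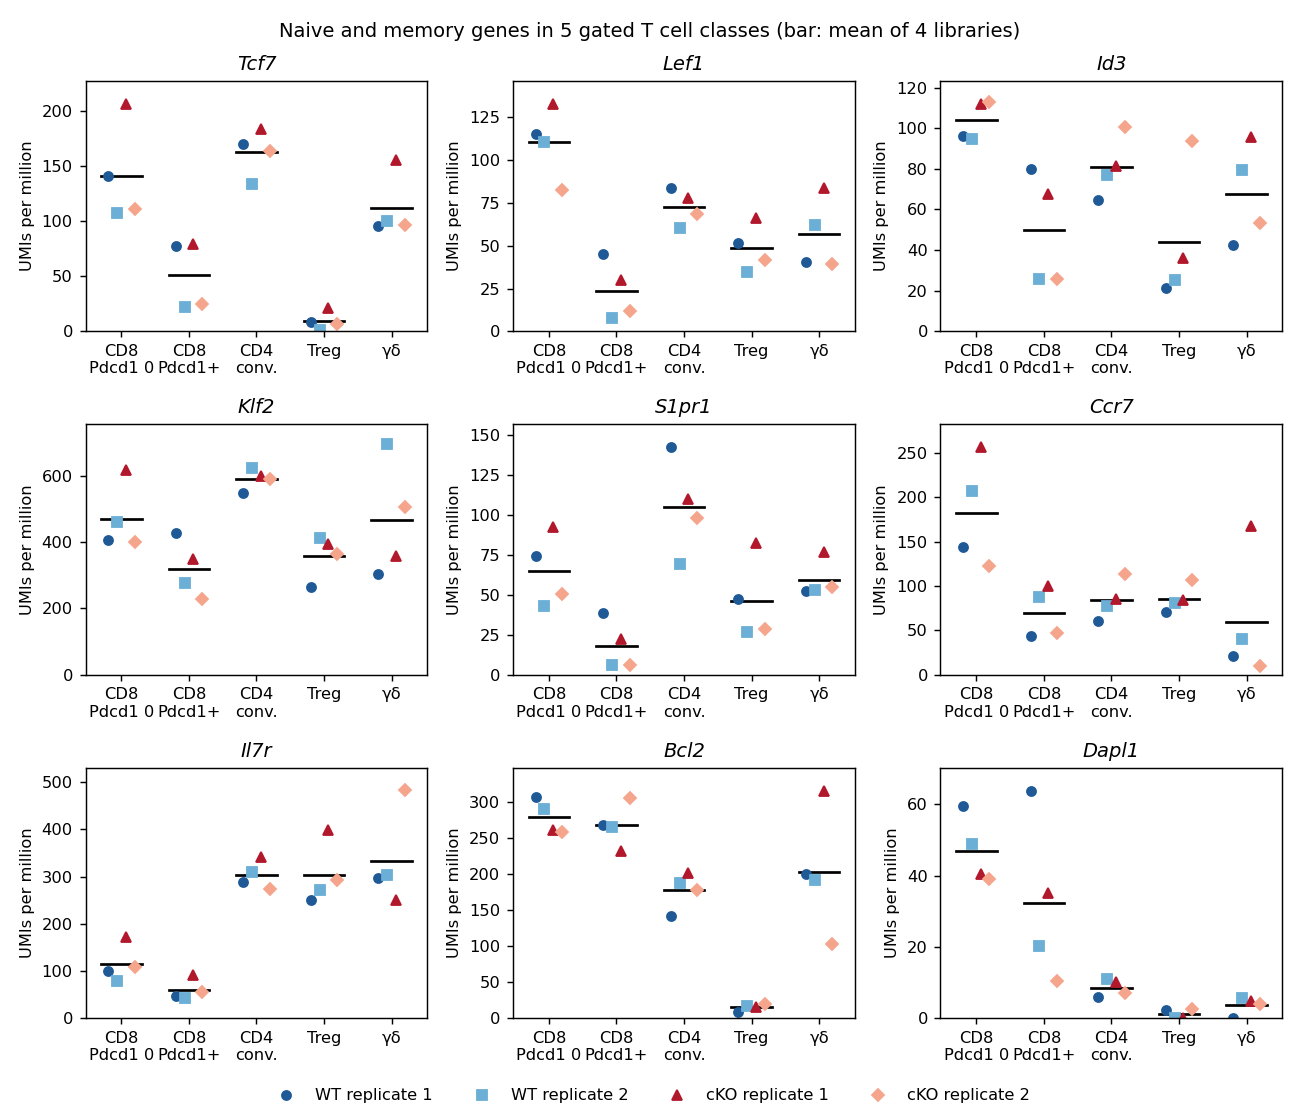
Level of each of the 9 genes (vertical axis, CPM, linear from 0) in 5 gated T cell classes (horizontal axis). Points are the 4 libraries and bars their means; Tcf7 and Bcl2 lie near the axis in Tregs (means of 9.29 and 14.99 CPM), and Dapl1 lies at 10.3 CPM or more in every library of both CD8 classes.

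The trafficking and survival genes each had another order. S1pr1 was highest in conventional CD4 cells (105 ± 30.4 CPM) and lowest in CD8 cells with Pdcd1 (18.2 ± 15.7). Ccr7 was at 144, 206, 256 and 123 CPM in CD8 cells without Pdcd1, above every library of Tregs (85.7 ± 15.1), conventional CD4 cells (84.1 ± 22.3) and CD8 cells with Pdcd1 (69.6 ± 28.4). In gamma-delta cells Ccr7 was at 21.4, 39.6, 168 and 9.83 CPM, where cKO replicate 1 alone was high. Il7r split the classes into a high and a low group: gamma-delta cells (334 ± 103 CPM), conventional CD4 cells (303 ± 30.05) and Tregs (303 ± 65.4) overlapped one another and lay above both CD8 classes (115 ± 40.3 without and 58.7 ± 22.3 with Pdcd1). Bcl2 was at 8.57, 16.9, 15.01 and 19.5 CPM in Tregs and between 102 and 316 CPM in every library of the other classes. Dapl1 was at 59.5, 48.8, 40.6 and 39.1 CPM in CD8 cells without Pdcd1, at 5.76 to 10.8 CPM in conventional CD4 cells, and had 3 UMIs in all Tregs and 7 in all gamma-delta cells. It was thus the gene of the group most restricted to CD8 cells by level.

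The promoters of Dapl1 and Tcf7 are shown because they alone among those searched hold TGTTTAC, a core motif of forkhead factors such as FOXO1, which drives Il7r, Klf2 and Ccr7 in resting T cells. RefSeq windows (GRCm38.p6, 250 bases before to 50 after each start) were found for 7 of the 9 genes, 11 windows in all, with none for S1pr1 and Ccr7. The motif, read on both strands, was in the Dapl1 window and in 1 of 2 Tcf7 windows, against 3.65% of 32851 windows; motifs were chosen after matches had been seen. Capitals mark it on the shown strand, where it reads GTAAACA; its first base lies 164 bases before the start of Dapl1 and at base 2 of the Tcf7 transcript.
Dapl1, chr2:59484478-59484507, + strand: cactctgtcctGTAAACAtctacctggctt
Tcf7, chr11:52282576-52282605, - strand: cctttataggaGTAAACAgacccccgccat
The wider upstream region of Dapl1, the gene with the narrowest range of classes, is chr2:59484403-59484652 (+ strand).
Dapl1 upstream: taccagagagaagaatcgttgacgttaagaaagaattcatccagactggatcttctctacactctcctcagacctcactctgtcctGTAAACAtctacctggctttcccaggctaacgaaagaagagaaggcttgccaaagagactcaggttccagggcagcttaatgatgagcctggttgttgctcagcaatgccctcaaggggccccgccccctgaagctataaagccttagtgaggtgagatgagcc
The TCF/LEF core CTTTGAT was in none of the 11 windows (3.73% of all windows hold it). The short KLF core CACCC, which 57.5% of all windows hold, was in those of Lef1 (4 of 4), Tcf7 (2 of 2), Id3 and Klf2. A match of letters is not a binding site.

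Differences between classes were tested on UMI counts summed per library and class, with the library as a block (edgeR quasi-likelihood test, Benjamini-Hochberg adjustment over all genes tested, threshold 0.05). Against CD8 cells, conventional CD4 cells were higher in 4 of 9 genes, where 11.8% of 8032 genes tested were called higher and 22.7% in either direction: Il7r (log2 fold change 1.95 ± 0.18, SE, adjusted p = 1.26e-06), S1pr1 (1.65 ± 0.20), Tcf7 (1.03 ± 0.19) and Klf2 (0.64 ± 0.18). They were lower in 2, Dapl1 (-1.99 ± 0.33) and Bcl2 (-0.67 ± 0.20), where 11% of genes were called lower. Lef1, Id3 and Ccr7 did not pass. The median of the 9 was 0.41, against -0.01 over all genes tested. The calls on Bcl2 and Klf2 were each lost with some single libraries left out, while the estimates kept their direction. Bcl2 was at -0.56 (adjusted p = 0.111) without WT replicate 1 and at -0.70 (0.127) without WT replicate 2. Klf2 was at 0.58 (0.0831) without WT replicate 2 and at 0.54 (0.0757) without cKO replicate 2. Over 14 alternatives the adjusted p ran from 2.77e-06 to 0.127 for Bcl2 and from 1.83e-05 to 0.0831 for Klf2. Without WT replicate 1, Lef1 passed at 0.55 (adjusted p = 0.0237; 0.0237 to 0.41 over 14 alternatives).

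Tregs were lower than conventional CD4 cells in 6 of 9 genes and higher in none, where 7.43% of 8032 genes were called lower and 7.68% higher. Tcf7 was 20.2-fold lower (log2 -4.34 ± 0.32, adjusted p = 1.51e-07) and Bcl2 12.02-fold lower (-3.59 ± 0.30, adjusted p = 5.96e-07). S1pr1 (-1.30 ± 0.24), Klf2 (-0.82 ± 0.19), Lef1 (-0.68 ± 0.22, adjusted p = 0.0453) and Dapl1 were also lower; Dapl1 had 3 UMIs in Tregs against 40, a ratio of 0.119 with a counting interval of 0.0235 to 0.373. Id3 (-0.94 ± 0.35, adjusted p = 0.0816), Il7r (-0.11 ± 0.18) and Ccr7 (-0.05 ± 0.40) did not pass. The ratio of Il7r was 0.929, with a 95% interval of 0.727 to 1.19 from its SE. The median of the 9 was -0.94, against 0.01 over all genes tested. The call on Lef1 was lost without WT replicate 2, cKO replicate 1 or cKO replicate 2 (-0.62, -0.83 and -0.66; adjusted p = 0.177, 0.0621 and 0.0998) and without shared barcodes (-0.60, 0.083). The call on Dapl1 was lost without WT replicate 2 (-2.39, 0.121) or cKO replicate 1 (-2.58, 0.099), and Id3 passed without cKO replicate 2 (-1.52, adjusted p = 0.00301). Over the alternatives, the adjusted p ran from 0.0019 to 0.177 for Lef1, from 2.62e-05 to 0.121 for Dapl1 and from 3.37e-06 to 0.434 for Id3.

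Gamma-delta cells were higher than CD8 cells in Il7r (log2 2.16 ± 0.19, adjusted p = 5.51e-07) and S1pr1 (0.92 ± 0.25, adjusted p = 0.0222), 2 of 9 genes where 6.64% of 8032 genes were called higher. Dapl1 was lower, 1 of 9 where 4.57% were called lower, with 7 UMIs against 517 and a ratio of 0.117 (counting interval 0.0468 to 0.243). The other 6 genes did not pass, with log2 fold changes from -0.996 ± 0.423 for Ccr7 to 0.54 ± 0.22 for Tcf7. The median of the 9 was 0.12, against -0.03 over all genes tested. The call on S1pr1 was lost without WT replicate 2 (0.72, adjusted p = 0.201) or cKO replicate 2 (0.80, 0.124), and ran from 8.25e-05 to 0.212 over 14 alternatives. Without cKO replicate 1, whose gamma-delta cells were the high ones for Ccr7, Ccr7 passed as lower (-2.02, adjusted p = 0.00235; 2.21e-07 to 0.494 over 14 alternatives), and so did Bcl2 (-0.76, 0.0281; 0.0107 to 0.744). Without WT replicate 1, Klf2 passed as higher (0.62, 0.0458; 0.0458 to 0.913). The comparisons with CD8 cells share the same CD8 sums.

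The other naive and memory genes measured beside the group (16, of which 14 were tested in each class comparison) moved both ways between classes. Against CD8 cells, conventional CD4 cells were higher in 5 and lower in 4; Ly6c1 (5.43 ± 0.62) and the interleukin-6 receptor gene Il6ra (2.29 ± 0.29) were higher, and Eomes (-4.15 ± 0.49), a T-box factor of CD8 memory, and Cd27 (-1.82 ± 0.26) lower. Tregs against conventional CD4 cells were higher in 2, among them Cd27 (2.31 ± 0.28), and lower in 4, Igfbp4, Klf3 (-1.23 ± 0.24), Satb1 (-1.05 ± 0.21) and Bach2 (-1.74 ± 0.36). Gamma-delta cells against CD8 cells were higher in 1, Foxp1 (0.56 ± 0.13), and lower in 3, among them Slamf6 (-2.15 ± 0.48). The medians of these lists were 0.34, -0.77 and 0.15 on the log2 scale.

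Outside T cells, the genes were shared unequally with other immune cells gated in the same way. Ccr7 was far higher in migratory dendritic cells (4436 to 6942 CPM in 30 to 50 cells a library) and in B cells (741 to 1446 CPM) than in any T cell class. Migratory dendritic cells also held Tcf7 at 94.5 to 189 CPM and Il7r at 167 to 283 CPM, but had no Lef1 UMI in any library. NK cells held Bcl2 at 219 to 258 CPM and Tcf7 at 34.4 to 54.3 CPM, with Il7r at 2.05 to 5.69 CPM. B cells held S1pr1 at 108 to 166 CPM and Klf2 at 640.4 to 889 CPM. Id3 was at 263 to 320.2 CPM in monocytes and at 115 to 196 CPM in macrophages, above its level in every library of every T cell class (112.8 CPM or less). Dapl1 was at 0.203 CPM or less in all of these cell types. Macrophages, which should lack them, had a UMI of Tcf7 in 0.484% ± 0.336 of cells thinned to 3000 UMIs (SD, n = 4), of Lef1 in 0.179% ± 0.124 and of Dapl1 in 0.0759% ± 0.0620.

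In CD8 cells, the group was lower where Pdcd1 was present. CD8 cells with at least 1 Pdcd1 UMI were lower than those with none in 8 of 9 genes and higher in none, where 5.71% of 8808 genes were called lower (same test, blocked by library). The largest falls were in Lef1 (6.55-fold), S1pr1 (5.21-fold) and Tcf7 (3.55-fold), followed by Ccr7 (2.83-fold), Id3 (2.73-fold) and Il7r (2.11-fold). Bcl2 was the gene that did not pass. Median depths differed: 5403, 7293, 7137 and 6212 UMIs without Pdcd1 and 6778, 9664, 9296 and 9570 with it, in 132, 261, 80 and 278 against 93, 457, 135 and 369 cells.

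Among the transcription factors, Lef1 was at 115, 111, 133 and 82.7 CPM without Pdcd1 and at 45.1, 8.04, 29.9 and 11.9 CPM with it. The classes do not overlap, and WT replicate 2 and cKO replicate 2, which held the most CD8 cells, were the low ones with Pdcd1. The log2 fold change was -2.71 ± 0.31 (SE, adjusted p = 0.000828). Tcf7, with its values given above, was also lower in every library and lowest with Pdcd1 in the same pair (-1.83 ± 0.22, adjusted p = 0.000972). Id3 went from 96.1, 94.5, 112 and 113 CPM to 80.1, 25.8, 67.7 and 26.0 CPM (-1.45 ± 0.28, adjusted p = 0.00853). In WT replicate 1 the fall of Id3 was within the 95% Poisson intervals of the levels, 76.6 to 119 against 61.7 to 102 CPM. Klf2 went from 406, 460.3, 617 and 400.4 CPM to 428, 276, 349 and 228 CPM (-0.70 ± 0.14, adjusted p = 0.0122), lower in 3 of 4 libraries and not in WT replicate 1.

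**Figure D2:**
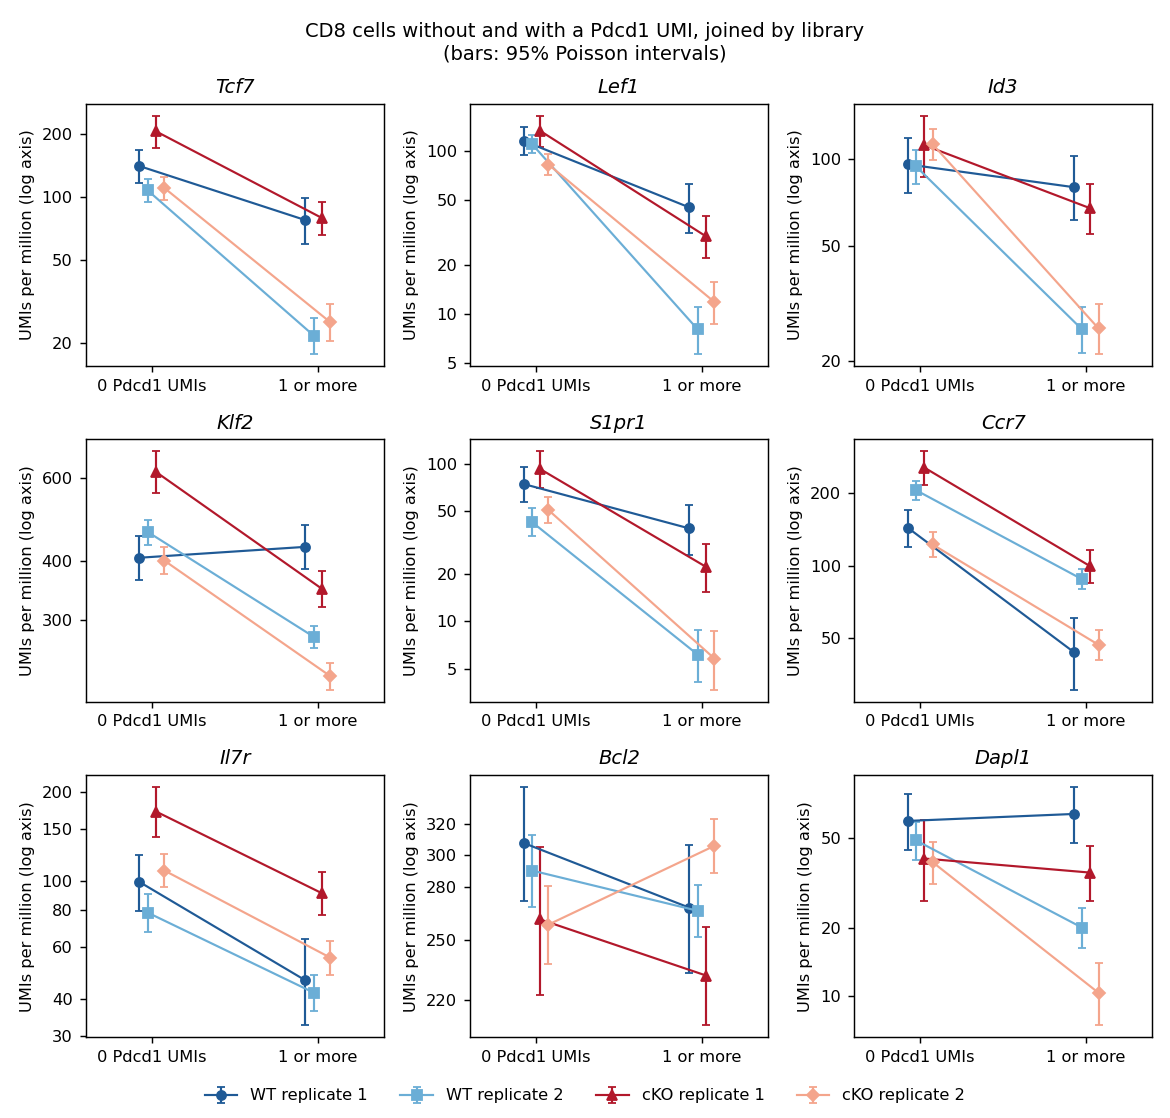
Level of each gene (vertical log axis, CPM) in CD8 cells with 0 and with 1 or more Pdcd1 UMIs, joined by library; bars are 95% Poisson intervals, which cover counting error. The lines of Tcf7, Lef1, Id3, S1pr1, Ccr7 and Il7r fall in all 4 libraries, those of Klf2 and Dapl1 are level or rise in WT replicate 1, and that of Bcl2 rises in cKO replicate 2 (258 to 306 CPM).

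Of the trafficking genes, S1pr1 went from 74.3, 42.7, 92.5 and 50.8 CPM without Pdcd1 to 38.8, 6.13, 22.1 and 5.80 CPM with it (-2.38 ± 0.30, adjusted p = 0.00117). Ccr7 went from 144, 206, 256 and 123 CPM to 43.8, 88.0, 99.6 and 46.9 CPM (-1.50 ± 0.10, adjusted p = 5.86e-05). Of the survival genes, Il7r went from 99.5, 78.4, 172 and 109 CPM to 46.3, 42.1, 91.1 and 55.2 CPM (-1.07 ± 0.10, adjusted p = 0.000398). Each of these 3 genes was lower in every library, though for Il7r the classes overlap between libraries. Bcl2 was at 308, 290.0, 261 and 258 CPM without and at 268, 266, 232 and 306 CPM with Pdcd1, overlapping fully (-0.16 ± 0.09, adjusted p = 0.349; ratio 0.893, 95% interval 0.785 to 1.01). Dapl1 was at 59.5, 48.8, 40.6 and 39.1 CPM without and at 63.8, 20.1, 35.1 and 10.3 CPM with Pdcd1 (-1.03 ± 0.29, adjusted p = 0.0485). Its classes overlap, and in WT replicate 1 it was not lower.

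The falls of Lef1, S1pr1, Tcf7, Ccr7 and Il7r passed under all 15 alternatives, with log2 fold changes from -3.39 to -2.26 for Lef1 and from -2.09 to -1.60 for Tcf7. Calls on the others were lost under some alternatives, among them single libraries left out. Dapl1 was at -0.83 (adjusted p = 0.268) without WT replicate 2 and at -0.67 (0.251) without cKO replicate 2, Id3 at -1.22 (0.0619) without WT replicate 2, and Klf2 at -0.64 (0.0768), -0.62 (0.0553) and -0.62 (0.0751) without WT replicate 2, cKO replicate 1 and cKO replicate 2. With all 4 libraries, the call on Dapl1 was also lost under RLE normalisation (adjusted p = 0.0512), DESeq2 (0.116), doublets kept (0.069), no exclusion of other lineages (0.202), stricter gates (0.0511) and no library block (0.293), so 7 of 15 alternatives called it, and that on Klf2 was lost with no library block (0.0823). Over 15 alternatives the adjusted p ran from 4.57e-07 to 0.293 for Dapl1, from 1.22e-16 to 0.0619 for Id3 and from 1.15e-10 to 0.0823 for Klf2. Without WT replicate 2, 5 of 9 genes were called lower, where 227 of all 8076 genes tested were. Without cKO replicate 2 it was 6 of 9 (183 of 7931 genes), and with shared barcodes left out 8 of 9 (599 of 8731). In cells thinned to 3000 UMIs 8 of 9 were called lower, where 295 of 5914 genes were, and Bcl2 turned to 0.17.

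The lists measured beside the group moved in opposite directions in this comparison. Of 14 other naive and memory genes tested, 10 were lower and 0 higher, with a median log2 fold change of -1.08 against -0.02 over all genes tested; Igfbp4 (-5.10 ± 0.26), Satb1 (-2.13 ± 0.16) and Il6ra (-2.80 ± 0.27) were among those with the smallest p-values. Of 19 effector and exhaustion genes, 13 were higher, where 5% of 8808 genes tested were called higher. First by p were Tnfrsf9 (2.88 ± 0.08), which encodes the costimulatory receptor 4-1BB, Cxcr6 (1.15 ± 0.11), Ctla4 (1.85 ± 0.19) and Havcr2 (2.44 ± 0.27), which encodes the checkpoint receptor TIM-3. Gzmk, a granzyme gene of less differentiated CD8 cells, was the 1 that was lower (-0.67 ± 0.13), and the median of the list was 1.09. Both lists were chosen for a contrast of this kind. Beside these, the 5 proliferation genes summed to 686, 978, 315 and 869 CPM without Pdcd1 and to 1140.1, 732, 949.6 and 846 CPM with it, and the 8 macrophage genes to 288, 161, 425 and 439 CPM and to 265, 119.7, 212 and 255 CPM. The 8 dissociation genes, early response and heat shock genes known to rise when tissue is dissociated, summed to 7914, 5070, 8494 and 9509 CPM without and to 8385, 7593, 12048 and 9645 CPM with Pdcd1, higher in 4 of 4 libraries. The 3 monocyte genes summed to 2175, 3563, 1997 and 3238 CPM and to 2166, 1360, 1312 and 2016 CPM, lower in 4 of 4. The part of these lists in the differences was not tested.

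With every cell thinned to 3000 UMIs, so that depth was equal, the group was lower again at higher Pdcd1. CD8 cells with 0, 1 and 2 or more Pdcd1 UMIs held UMIs of 2.37 ± 0.20, 1.67 ± 0.33 and 1.29 ± 0.14 of the 9 genes on average (SD, n = 4 libraries). The share of cells with 3 or more of the genes was 40.6% ± 3.69, 18.4% ± 6.02 and 8.85% ± 3.38, and it was lower at each step in all 4 libraries. Before thinning it was 68.4% ± 6.77, 49.4% ± 12.5 and 38.4% ± 14.2. Tcf7 went from 128 ± 28.7 to 61.6 ± 14.2 and 26.7 ± 24.6 CPM over the 3 bins, Lef1 from 102 ± 22.5 to 24.8 ± 17.2 and 15.3 ± 8.95 CPM, and Il7r from 147 ± 55.6 to 92.4 ± 46.5 and 37.0 ± 19.1 CPM. Lef1 thus had most of its difference between 0 and 1 UMI. The mean of Il7r was lower at both steps, but in WT replicate 1 it was 113 and 123 CPM at 0 and 1 UMI, and in WT replicate 2 38.2 and 38.6 CPM at 1 and 2 or more. Bcl2 was at 277 ± 13.3, 296 ± 103 and 348 ± 46.9 CPM. Thinning left 168, 617, 195 and 514 CD8 cells, since shallower cells and those that no longer met the gate were left out.

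**Figure D3:**
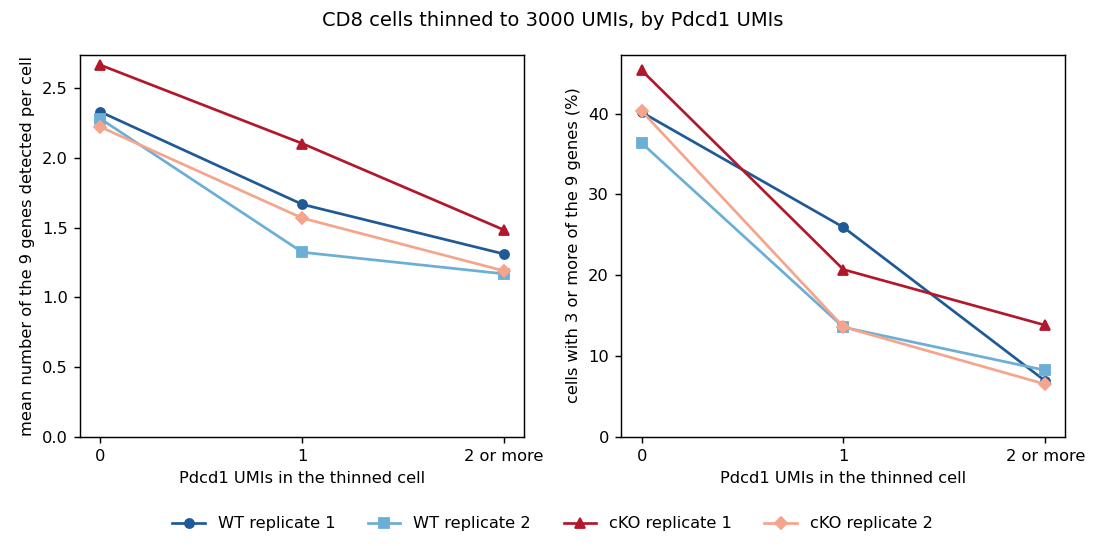
Mean number of the 9 genes with a UMI per CD8 cell (left) and share of CD8 cells with 3 or more of them (right, %) against the Pdcd1 UMIs of the cell, after thinning each cell to 3000 UMIs; lines are the 4 libraries. Both measures fall from 0 to 2 or more Pdcd1 UMIs in every library, the share from 36.4% or more to 13.8% or less.

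The genes also met in the same CD8 cells, apart from Bcl2. At equal depth, the 56 ordered pairs among the other 8 genes were compared. In each, the second gene was in a larger share of cells with the first gene than of cells without it. This held in 4 of 4 libraries for 44 ordered pairs and in 3 of 4 for 12. Every pair of genes enters these counts in both orders. Within a library the direction is always the same in both orders, so mirrored pairs are not separate support. Ccr7 had a UMI in 35.2% of CD8 cells with Tcf7 and in 7.24% of those without (mean of 4 libraries; 38.3% and 8.41% before thinning). Klf2, which switches on S1pr1, had a UMI in 76.7% of CD8 cells with S1pr1 and in 44.6% of those without (90.7% and 62.7% before thinning). CD8 cells with Bcl2 had on average a smaller share of each of the other 8 genes at equal depth, in 4 of 4 libraries for S1pr1, Klf2 and Ccr7. Single libraries differed for the rest: the share was larger with Bcl2 in 3 of 4 libraries for Lef1, in 2 for Il7r and Dapl1, and in 1 for Tcf7 and Id3. On average Tcf7 had a UMI in 16.4% of CD8 cells with Bcl2 against 18.9% of those without (30.5% and 39.4% before thinning). Before thinning the order was the other way for 3 of 8: Dapl1 (12.2% with Bcl2 and 8.45% without, higher in 4 of 4 libraries), Id3 (26.9% and 25.4%) and Lef1 (26.7% and 26.1%). In conventional CD4 cells 52 of the 56 ordered pairs, again with every pair in both orders, had a larger share on average. The share was larger in 4 of 4 libraries for 28 ordered pairs and in 3 of 4 for 20. Bcl2 went the other way there for 7 of 8 genes on average, in 4 of 4 libraries for 4 of them. Tcf7 had a UMI in 45.8% of CD4 cells with Bcl2 and in 31.5% of those without (51.9% and 41.5% before thinning). Cells of a library are not replicates, so these shares are given with no test.

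Among CD8 cells with Pdcd1, those that also held Tcf7 kept more of the group. A Tcf7 UMI was present in 29.03%, 10.5%, 33.3% and 14.1% of them (27, 48, 45 and 52 cells), and in 8.93%, 4.67%, 13.8% and 8.27% after thinning, against 0.0547% to 0.853% of thinned macrophages. This split was added after the other results had been seen, and Tcf7 itself is left out of it. Cells with Tcf7 were higher in 5 of the 8 remaining genes and lower in none, where 2.71% of 6089 genes were called higher, 2.89% lower and 5.6% in either direction: Dapl1, Ccr7, Lef1, Id3 and Il7r. Their median depths were 6964, 10692, 10080 and 8096 UMIs, against 6192, 9650, 9197 and 9989 without Tcf7.

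Dapl1 was at 131, 93.1, 66.8 and 35.4 CPM with Tcf7 and at 23.9, 10.7, 15.7 and 6.18 CPM without it (log2 2.67 ± 0.22, adjusted p = 0.000103). Ccr7 was at 90.7, 527, 134 and 164 CPM and at 16.0, 31.7, 78.7 and 27.4 CPM (2.63 ± 0.42, adjusted p = 0.00401), with WT replicate 2 far above the others. In both genes every library with Tcf7 lies above every library without it. Lef1 was at 63.8, 33.5, 58.3 and 38.9 CPM and at 33.9, 4.77, 12.6 and 7.36 CPM (2.15 ± 0.30, adjusted p = 0.00197). Id3 was at 84.0, 104, 130.2 and 79.5 CPM and at 77.8, 15.7, 29.4 and 17.1 CPM (1.97 ± 0.31, adjusted p = 0.00401), where the rise in WT replicate 1 is small. Il7r was at 77.3, 130.3, 115 and 81.3 CPM and at 27.9, 30.8, 76.6 and 50.9 CPM (1.22 ± 0.24, adjusted p = 0.0142). S1pr1 (1.90 ± 0.52, adjusted p = 0.0573), Klf2 (0.48 ± 0.15, adjusted p = 0.0865) and Bcl2 (-0.21 ± 0.12, adjusted p = 0.361) did not pass; S1pr1 was at 43.9 CPM without Tcf7 in WT replicate 1, above all 4 libraries with Tcf7.

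**Figure D4:**
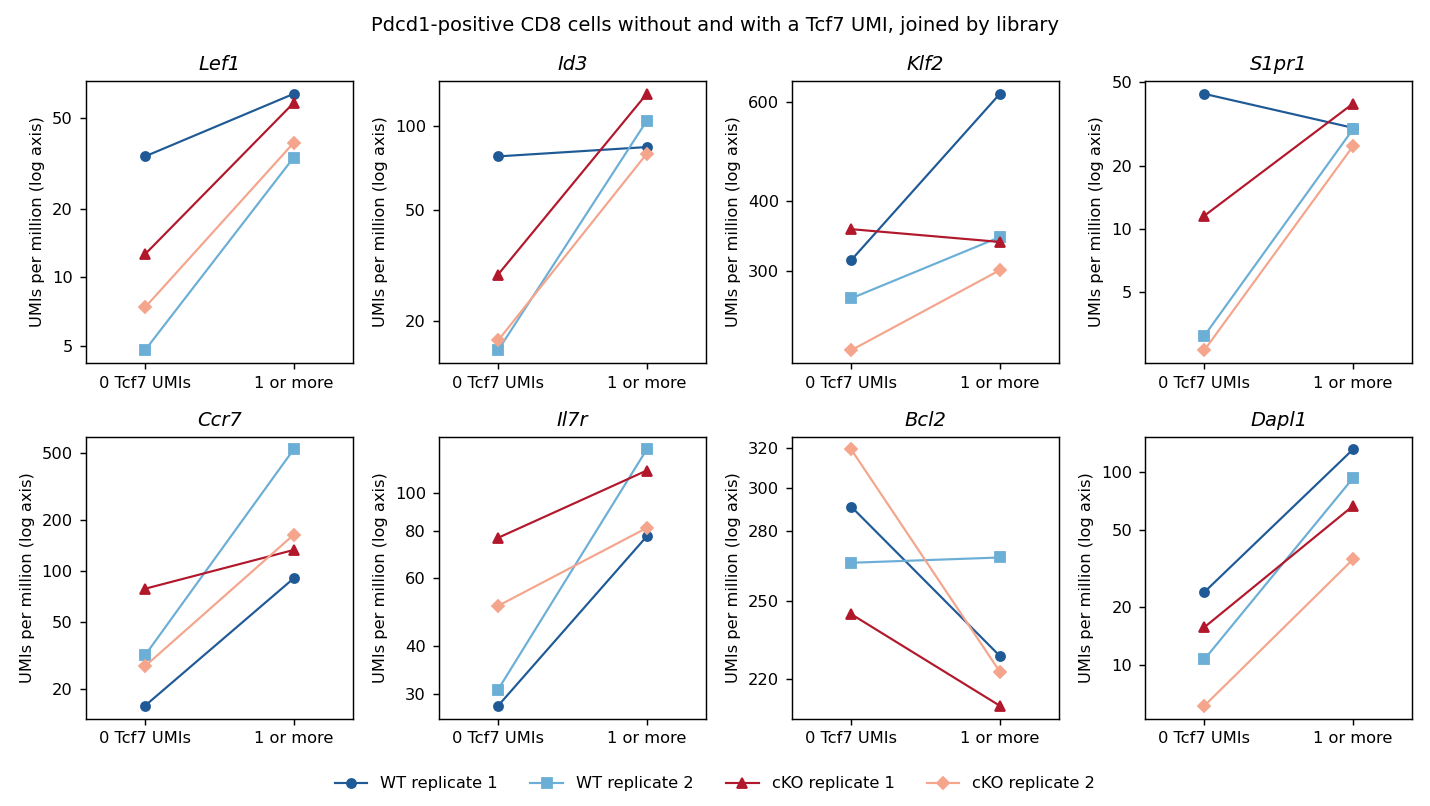
Level of 8 genes (vertical log axis, CPM) in Pdcd1-positive CD8 cells without and with a Tcf7 UMI, joined by library. Dapl1, Ccr7, Lef1, Id3 and Il7r rise in all 4 libraries, S1pr1 falls in WT replicate 1 (43.9 to 30.2 CPM), and Bcl2 falls in 3 of 4.

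Of 10 other naive and memory genes tested in these cells, 5 were higher with Tcf7 and 0 lower, among them Foxp1 (1.00 ± 0.15), Slamf6 (2.36 ± 0.36), a surface marker of stem-like CD8 cells, and Satb1 (1.60 ± 0.25). Of 18 effector and exhaustion genes, 11 were lower, with Prf1 (-2.55 ± 0.22), the perforin gene, Entpd1 (-2.14 ± 0.21), Lag3 (-1.28 ± 0.13) and Havcr2 (-2.97 ± 0.33) first, and Cd160 was higher (1.57 ± 0.20). Pdcd1 itself was lower with Tcf7 (-1.15 ± 0.11, adjusted p = 0.000164). In cells thinned to 3000 UMIs, 5, 17, 12 and 22 cells remained with both genes, and only 3 of the 8 genes had enough counts to be tested. Id3 and Klf2 were called higher, where 23 of 1651 genes were, and Bcl2 was not called. The call on Il7r was lost without WT replicate 2 (0.83, adjusted p = 0.0834; 3.23e-08 to 0.0834 over 13 alternatives), and S1pr1 passed without WT replicate 1 (2.75, 0.00237; 8.19e-07 to 0.257), without shared barcodes (2.05, 0.0148) and by DESeq2 (2.03, 0.0296).

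Whether loss of Ufl1 changed the group was asked in all T cells, CD8 cells, CD8 cells without Pdcd1, conventional CD4 cells, Tregs and gamma-delta cells. CD8 cells with Pdcd1 were not tested between genotypes as a class of their own. None of the 9 genes was called between the libraries labelled cKO and WT in any of the 6 classes tested (edgeR quasi-likelihood test, lowest adjusted p = 0.998), where 0% of all genes were called in all T cells, CD8 cells, Tregs and gamma-delta cells, 0.0705% in CD8 cells without Pdcd1 and 0.0758% in conventional CD4 cells (0.0632% higher and 0.0126% lower). At an unadjusted p under 0.05 there were 344 of 11254 genes in all T cells, among them Dapl1, and 205 of 7159 in Tregs, among them Id3; in the other 4 classes none of the 9 was under it. DESeq2 also called 0 of the 9 in each class. In all T cells the log2 fold changes ran from -0.65 ± 0.20 for Dapl1 to 0.22 ± 0.20 for Il7r, with a median of 0.07 against -0.01 over all genes tested; in CD8 cells they ran from -0.72 ± 0.41 for Dapl1 to 0.49 ± 0.26 for Il7r, with a median of -0.14. Precision was limited: in CD8 cells SEs ran up to 0.55, which gives the ratio of S1pr1 (0.856) an interval of 0.406 to 1.81. It was lower still in gamma-delta cells, where SEs ran up to 1.02. Ccr7 was at 1.53 ± 1.02 there, a ratio of 2.89 with an interval of 0.726 to 11.5. Intervals from an SE use a normal approximation, so with so few libraries they are narrower than the quasi-likelihood test implies. Of the other naive and memory genes (9 to 16 of 16 tested in a class) and the effector and exhaustion genes (14 to 19 of 19 tested), 0 were called in each class.

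Among all T cells, Tcf7 was at 117, 66.9, 128 and 83.3 CPM (ratio 1.11, 95% interval 0.759 to 1.62 from its SE) and Lef1 at 77.4, 51.4, 73.9 and 49.6 CPM (0.923, 0.666 to 1.28). For both genes the replicates of 1 genotype differ more than the genotypes do, and both replicates numbered 2, with the larger share of CD8 cells, were the low ones. Dapl1 was at 24.7, 20.4, 17.2 and 12.98 CPM, with both libraries labelled cKO under both labelled WT (ratio 0.637, 95% interval 0.483 to 0.842, adjusted p = 1.00). It was the 1 of 9 genes whose libraries did not overlap in all T cells, where 28.9% of 11254 genes did not overlap. The dissociation genes separated the genotypes in most classes, at 11188 and 8836 CPM in WT and 14394 and 12440 CPM in cKO libraries in all T cells. They were at 8139 and 6768 against 11031 and 9596 CPM in CD8 cells, and 14882 and 13730 against 18363 and 16335 CPM in conventional CD4 cells. Tregs held 9339 and 10718 against 13793 and 15463 CPM. In gamma-delta cells the genotypes did not separate (13597 and 12980.5 against 9372 and 23087 CPM). The part of these genes in any difference between genotypes was not tested. Of the 9 genes in CD8 cells, the WT and cKO libraries did not overlap for 1, Bcl2, on the normalised scale only (raw CPM of 289 and 274 against 240.2 and 289; 27.9% of all genes). In gamma-delta cells they did not overlap for 0 of 8 (27.7%), and in conventional CD4 cells for 2 of 9, Id3 and Ccr7 (31.7%).

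In CD8 cells without Pdcd1 the libraries of 4 of 9 genes did not overlap, where 31.4% of all genes did not: Bcl2 (308 and 290.0 CPM in WT, 261 and 258 CPM in cKO libraries), Dapl1 (59.5 and 48.8, 40.6 and 39.1), Id3 (96.1 and 94.5, 112 and 113) and Il7r (99.5 and 78.4, 172 and 109). The 6 genes called in this class, all higher in cKO libraries, were Il1b, Ctsh, H2-DMb1, H2-Ab1, H2-Eb1 and Cd74, genes that myeloid cells use, and the 8 macrophage genes summed to 288, 161, 425 and 439 CPM there; their part in the differences of the 4 genes was not tested. In Tregs, where 7 of the 9 genes had enough counts to be tested, Id3 was at 21.4, 25.3, 36.0 and 93.6 CPM and Il7r at 251, 271, 398 and 293 CPM, and these 2 did not overlap (28.9% of all genes). Id3 had a log2 fold change of 1.48 ± 0.49 (adjusted p = 0.998; 0.00999 to 1.00 over 13 alternatives), and cKO replicate 2 alone was far above the others. Its Tregs also held the most macrophage RNA (770, 238, 458 and 961 CPM) and monocyte RNA (489, 513, 522 and 1369 CPM), cells in which Id3 was at 115 CPM or more. The part of that RNA in the level of Id3 was not tested.

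**Figure D5:**
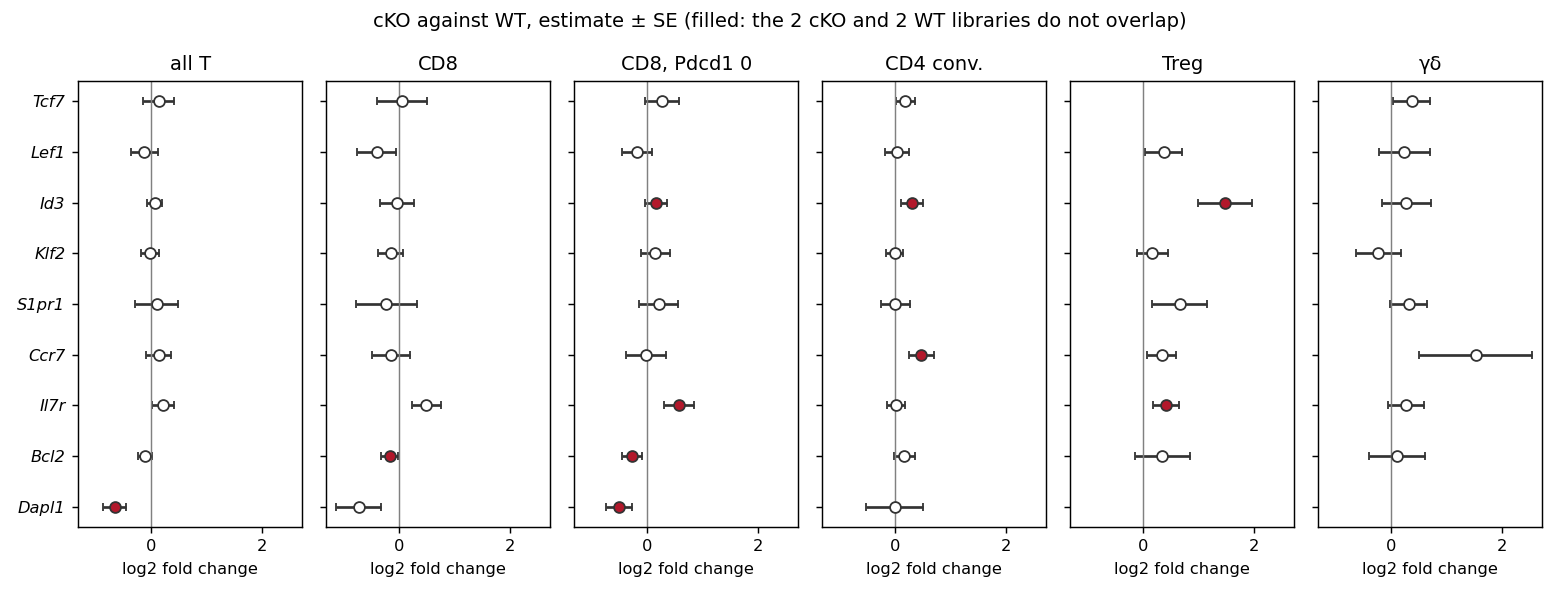
Log2 fold change of cKO against WT (horizontal axis) with its SE for each of the 9 genes in 6 classes; filled points mark genes whose 2 cKO and 2 WT libraries do not overlap after TMM normalisation. No gene passed the adjusted threshold, and most estimates lie within 0.5 of 0; Tcf7 and Dapl1 in Tregs and Dapl1 in gamma-delta cells were too low to be tested.

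Whether the genotype difference itself differed between CD8 and conventional CD4 cells was tested as an interaction, and 0 of 9 genes passed, where 0.0115% of 8693 genes did (136 genes at an unadjusted p under 0.05, DESeq2 1 called). Left out one at a time, libraries changed no member's call in all T cells, CD8 cells or Tregs; in gamma-delta cells, without cKO replicate 2, Ccr7 was called higher (log2 2.52 ± 0.37, adjusted p = 1.67e-08), with cKO replicate 1 at 168 CPM against 21.4 and 39.6 CPM as the only library of its group; without cKO replicate 1 it was at -1.70 (adjusted p = 0.288), and over all other alternatives it was not called. The share of CD8 cells with Pdcd1 was 41.3%, 63.6%, 62.8% and 57.0%, a mean of 52.5% ± 15.8 in WT and 59.9% ± 4.07 in cKO libraries (SD, n = 2; difference 7.42 points, exact permutation p = 1.00, two-sided, smallest possible 0.333). Without WT replicate 1 the difference was -3.74 points. The thinned share of Pdcd1-positive CD8 cells with Tcf7 was 6.80% ± 3.01 in WT and 11.03% ± 3.90 in cKO libraries (difference 4.23 points, exact permutation p = 0.667), and 29.03%, 10.5%, 33.3% and 14.1% in the single libraries before thinning.

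The genes outside all lists whose levels were most like the mean pattern of the group over 5 T cell classes and 4 libraries (20 points, Pearson's r of log2 levels centred within each library, 5642 genes compared) were Rasgrp2 (r = 0.93), Gm2682 (0.91), Nsg2 (0.90), Rps27 (0.90) and Gramd3 (0.89). Rasgrp2, an exchange factor for the integrin switch Rap1, was at a mean of 90.9 CPM in CD8 cells without Pdcd1, 43.5 with Pdcd1, 94.2 in conventional CD4 cells, 29.5 in Tregs and 77.1 in gamma-delta cells. Of the group itself, Id3 (0.91) and Tcf7 (0.90), which enter that mean, lay closest to it, and Il7r (0.01) and Ccr7 (0.38) farthest. The points of a library share its cells and depth, so r is a description.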

How the data were processed

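The deposited matrices hold the authors' UMI counts per gene and cell barcode, 1 matrix per library, made with Cell Ranger 6.1.1, per the file headers. CASAVA 1.8, Cell Ranger and Seurat are named in the submitters' processing notes. The genome build is not given in the sources used here. The members and all gene lists were chosen with earlier results of these data known.

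Barcodes were kept from 300 genes upwards and up to 15% mitochondrial UMIs. Scrublet's automatic threshold called 0 doublets, so the cells with the highest scores were removed at 0.8% per 1000 cells (422, 700, 483 and 512 cells), which left 6845, 8657, 7290 and 7487. T cell classes were gated on marker UMIs. Levels are raw CPM with 95% Poisson intervals, which cover counting error only. Intervals of ratios, apart from the counting intervals, were taken from the SE by a normal approximation. They are narrower than the quasi-likelihood test implies. Whether libraries overlap between genotypes was read after TMM normalisation.

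Sums of UMI counts by class and library were tested in edgeR 4.0.16 under R 4.3.3 with its quasi-likelihood test, after TMM normalisation and filterByExpr; p-values were adjusted by Benjamini-Hochberg over all genes tested (threshold 0.05). The library was a block between classes, and no covariate was used between genotypes. Shares between genotypes were compared by exact permutation. Equal-depth values used cells thinned to 3000 UMIs before gating, without shallower cells. Scripts were tested on simulated data. Alternatives were DESeq2 1.42.0, RLE normalisation, no filter on low counts, doublets kept, no exclusion of other lineages, stricter gates and cell filters, thinning, 2 or more Pdcd1 UMIs, other or no blocks, and each library left out; leaving out shared barcodes and the Tcf7 split were added after seeing the data. All members are named in every comparison; other listed genes are given as counts with up to 4 examples a direction, smallest p first, and 1 listed gene is not reported here. Python 3.11.15, scanpy 1.11.5, numpy 2.4.6, scipy 1.17.1 and pandas 2.3.3 were used. Promoter windows are from RefSeq.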

Additional observations from a re-analysis of the deposited data

Results flagged for a closer look

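The genotype difference of Trav7d-3, a T cell receptor alpha variable gene, differed between CD8 and conventional CD4 cells by a log2 value of -5.91 (SE 0.71, adjusted p = 0.0321, edgeR quasi-likelihood test of the interaction). It is listed because effects under the same contrast differed between the cell classes by a test of that difference. In conventional CD4 cells its own difference between cKO and WT was 3.65 ± 0.47 (adjusted p = 0.0161). With any of the 4 libraries left out, 0 genes passed the interaction test.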

How the results depend on the processing

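In all, 1281 values were recomputed for 92 results. Single members between genotypes enter these only where their WT and cKO libraries did not overlap. Of the values, 1123 kept their direction and side of the threshold or moved little, 86 moved, 33 lost and 22 gained a call, and 17 changed sign. Except where stated, the cause was not tested. With cells thinned to 3000 UMIs, which leaves fewer cells and genes, the genes called were 811 for CD4 against CD8 (1 of 8 members tested lower, Dapl1 being too low to test), 683 for Tregs, 504 for gamma-delta cells, 582 for the Pdcd1 split and 37 for the Tcf7 split (2 of 3 members tested higher). With no filter on low counts, which tests more genes, they were 1449 for gamma-delta cells, 1448 for the Pdcd1 split and 691 for the Tcf7 split. DESeq2 called 599 and 223 in those splits, and a fit with no library block 456 and 118. In gamma-delta cells 1 member was called higher under stricter gates (449 of 6983 genes), thinning (316 of 5134) and no library block (473 of 8032). With no filter 3 members were called lower (716 of 16238 genes), and under stricter gates 2 (237 of 6983).

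Between genotypes, genes called with no filter were 165 in all T cells, 78 in CD8 cells, 116 in CD8 cells without Pdcd1, 67 in conventional CD4 cells, 119 in Tregs (1 of the 9, Id3), 4 in gamma-delta cells and 21 for the interaction. DESeq2 called 14 in all T cells, 4 in CD8 cells and 14 in CD8 cells without Pdcd1. With thinning the counts were 1 in CD8 cells, 2 in CD8 cells without Pdcd1 and 0 in conventional CD4 cells. With doublets kept they were 0 in the last pair and 0 for the interaction, which also had 0 with no exclusion of lineages, stricter gates or shared barcodes left out; CD8 cells had 1 in the last case. Conventional CD4 cells had 34 with no exclusion of lineages and 1 under stricter gates. Replicate numbers are labels only: the correlation of same-numbered libraries' deviations was 0.0679 to 0.18 with 2 pairs. With the replicate block, 2 genes were called in CD8 cells, 74 in CD8 cells without Pdcd1 and 0 in conventional CD4 cells, with none of the 9 among them.

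With 1 library left out, genes called ranged from 755 to 1704 for CD4 against CD8 (members 3 to 5 higher, 1 to 2 lower), 660 to 1005 for Tregs (4 to 6 lower), 497 to 861 for gamma-delta cells (1 to 3 higher, 1 to 3 lower), 377 to 1134 for the Pdcd1 split (5 to 8 lower) and 102 to 383 for the Tcf7 split (4 to 6 higher). Between genotypes they ranged from 1 to 138 in all T cells, 0 to 4 in CD8 cells, 12 to 116 in CD8 cells without Pdcd1, 17 to 46 in conventional CD4 cells, 1 to 12 in Tregs and 0 to 120 in gamma-delta cells (members 0 to 1 higher), with 0 for the interaction. The Pdcd1 share difference ranged from -3.74 to 18.6 points and the Tcf7 share difference from 1.47 to 6.99.

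Log2 values that changed sign were those of Ccr7 in Tregs (0.105 with doublets kept, 0.0512 under stricter gates, 0.0664 without shared barcodes), Il7r in Tregs (0.156 thinned), Lef1 in gamma-delta cells (-0.0718 under stricter gates, -0.101 thinned, -0.0658 to 0.475 with a library left out), Id3 in gamma-delta cells (-0.0388 with doublets kept, -0.566 thinned, -0.22 to 0.382 with a library left out) and Bcl2 in the Pdcd1 split (0.168 thinned). Between genotypes, single members were followed here only where their WT and cKO libraries did not overlap. Among those, the sign changed for Bcl2 in CD8 cells (0.113 thinned), Id3 in conventional CD4 cells (-0.193 thinned) and Ccr7 there (-0.0813 with no exclusion of lineages). Ccr7 in gamma-delta cells, outside that selection, also changed sign without cKO replicate 1. None of these was called.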
